A study of Homo sapiens with 4 samples.

Results

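The lncRNAs described here are those that were abundant and nearly level in all 4 libraries of a human breast cancer line and of a subline selected from it. They were chosen by their measured values: isoform values were summed per gene, and a gene was kept when its sum was at least 10 FPKM in each library and when its highest library was at most 1.5 times its lowest. FPKM is the number of sequenced fragments of a transcript, scaled for its length and for all mapped fragments of the library. Of 46902 listed lncRNA genes, 403 reached 10 FPKM in every library, and 103 of these, or 25.6%, also kept within the ratio. The other 300 abundant genes had a larger ratio. Levels, ratios and differences between the lines used the same values as the choice, so they are given as a description without a test.

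MDA-MB-231-P3 was represented by 2 libraries. Per the labels' protocols this highly metastatic subline arose through repeated rounds in which MDA-MB-231 cells entered mice by the tail vein, lung tumours were harvested and their cells were grown up in vitro. It was set against the parental MDA-MB-231, a triple-negative breast cancer cell line, also with 2 libraries. No transgene, knockdown or drug is named for either line, and a single subline was measured. Nothing states that replicate libraries were grown separately, so p-values reflect just how far these libraries lay apart, and that spread may be technical. RNA of whole cultures was measured, so fewer cells making an RNA and less of that RNA per cell cannot be told apart. The table lists lncRNAs, and none of 8 protein-coding marker names looked for, among them EPCAM, VIM and ESR1, was listed, so the identity of the line was not checked.

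Long noncoding RNAs are transcripts without a long open reading frame, and several classes are abundant in cultured cells. One class hosts small nucleolar RNAs (snoRNAs), which guide chemical modification of ribosomal RNA and are cut from the host's introns. Others carry microRNAs, which bind messenger RNAs through a short seed at their 5′ end, and some act in cis on a neighbouring gene. Names beginning with lnc- are built from a nearby gene and carry no information on function, and a TCONS name belongs to an assembled transcript.

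Promoters and microRNAs of members with a symbol of their own are shown first. All 31 such members were found in the annotation, 3 of them under a newer symbol: LINC01578 is CHASERR, LINC02001 is SNHG30 and FLG-AS1 is CCDST. RefSeq (build GRCh38.p14) gave a promoter window, 250 bases before to 50 bases after the annotated start, for 27 of the 31, and the first listed start was used where there were several. The snoRNA hosts SNHG5 (chr6:85678684-85678983, minus strand) and SNHG16 (chr17:76557514-76557813, plus strand) had the letters CTTTT at or just after the start, beginning at base 1 in SNHG5 and at base 6 in SNHG16. In the windows of LINC01578 (chr15:92882593-92882892, plus strand) and MIR17HG (chr13:91347437-91347736, plus strand), AGATGGC lay across the start of LINC01578 and GGGCGG, or its reverse complement CCGCCC, recurred in MIR17HG. Capitals mark these letters. GGGCGG also lay in the windows of SNHG5, SNHG16 and LINC01578, where it is not marked.
SNHG5: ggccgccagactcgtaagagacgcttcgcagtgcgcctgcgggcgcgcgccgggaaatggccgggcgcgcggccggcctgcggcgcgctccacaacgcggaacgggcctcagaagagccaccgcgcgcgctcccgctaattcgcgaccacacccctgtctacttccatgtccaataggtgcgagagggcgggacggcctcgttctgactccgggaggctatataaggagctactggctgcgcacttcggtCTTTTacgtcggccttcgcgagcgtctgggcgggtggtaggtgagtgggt
SNHG16: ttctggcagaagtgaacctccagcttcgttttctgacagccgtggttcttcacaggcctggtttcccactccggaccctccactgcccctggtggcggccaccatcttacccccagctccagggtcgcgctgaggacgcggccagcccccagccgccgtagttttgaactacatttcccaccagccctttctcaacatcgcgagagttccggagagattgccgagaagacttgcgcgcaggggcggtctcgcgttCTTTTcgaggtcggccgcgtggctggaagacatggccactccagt
LINC01578: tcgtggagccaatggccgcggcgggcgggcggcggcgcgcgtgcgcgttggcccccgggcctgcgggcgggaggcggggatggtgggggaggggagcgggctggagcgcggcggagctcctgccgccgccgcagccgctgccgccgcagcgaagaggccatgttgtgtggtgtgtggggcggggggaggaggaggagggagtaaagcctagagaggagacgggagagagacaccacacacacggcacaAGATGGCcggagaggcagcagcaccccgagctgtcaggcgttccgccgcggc
MIR17HG: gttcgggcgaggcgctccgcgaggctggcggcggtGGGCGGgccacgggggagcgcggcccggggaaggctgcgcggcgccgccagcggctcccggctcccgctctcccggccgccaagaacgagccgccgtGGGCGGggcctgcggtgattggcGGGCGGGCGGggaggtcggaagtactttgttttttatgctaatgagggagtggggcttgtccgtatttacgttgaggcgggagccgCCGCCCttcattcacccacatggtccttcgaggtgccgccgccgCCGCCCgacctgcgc

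CTTTT, searched on the transcribed strand only, lay within the first 20 transcribed bases of 2 of the 27 member promoters, against 1 of 51 promoters of the other abundant genes and 2.24% of all 35116 RefSeq promoters. This search was added after values of the members had been seen. The other snoRNA hosts among the members, GAS5, DANCR and LINC02001, had no CTTTT within the first 20 transcribed bases. A pyrimidine run at the start is known from many snoRNA hosts and ribosomal protein genes. On either strand, GGGCGG was in 20 member promoters (74.1%), against 47.1% for the other abundant genes and 45.0% for all. CCAAT was in 12 of the member promoters (44.4%), against 39.2% and 34.6%. TATAAA was in 2 member promoters (7.41%), against 11.8% for the other abundant genes and 11.5% for all. CACGTG was in 3 (11.1%), against 17.6% and 7.26%. AGATGGC was in 1 (3.70%), against 13.7% and 5.41%. The windows of the members had a median of 23 CG dinucleotides, as had those of the other abundant genes, against 14 over all promoters. GGGCGG and CG content are related by their letters. These are descriptions of letters and not of bound factors.

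Among the members, 4 were on the list of microRNA hosts. Inside MIR17HG lie 6 microRNA genes, inside MIR22HG and MIR503HG 1 each, and inside PVT1 4. DANCR, not on that list, also holds 1, MIR4449. In all, 5 annotated members held a microRNA gene (16.1%), against 9.4% of the other abundant genes and 3.15% of all matched genes. The microRNAs themselves were not measured here. The arms below show the seed, bases 2 to 8, in capitals, and show that the MIR17HG cluster holds pairs with a shared seed: miR-17-5p with miR-20a-5p, and miR-19a-3p with miR-19b-3p.
hsa-miR-17-5p: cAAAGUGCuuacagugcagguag
hsa-miR-20a-5p: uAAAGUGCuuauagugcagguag
hsa-miR-18a-5p: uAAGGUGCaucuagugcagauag
hsa-miR-19a-3p: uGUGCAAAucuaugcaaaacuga
hsa-miR-19b-3p: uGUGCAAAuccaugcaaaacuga
hsa-miR-92a-3p: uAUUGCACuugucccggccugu
hsa-miR-22-3p: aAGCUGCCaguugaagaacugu
hsa-miR-503-5p: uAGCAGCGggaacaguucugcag

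The members spanned a wide range of abundance. Mean summed FPKM over the 4 libraries ran from 11.2 to 4294, with a median of 27.5. The median ratio of the highest to the lowest library was 1.33, and the coefficient of variation over the 4 libraries ran from 4.07% to 21.1%. Within a line, the higher library was a median of 1.10 times the lower in MDA-MB-231-P3 and 1.12 times in MDA-MB-231. In the other 300 abundant genes the median ratio over the 4 libraries was 2.01, and within a line it was 1.27 in MDA-MB-231-P3 and 1.40 in MDA-MB-231. Of genes with a mean of at least 1000 FPKM, 7 were members and 29 were not. Of those between 100 and 1000 FPKM, 7 were members and 57 were not. From 50 to 100 FPKM, 19 were members and 41 were not, and from 20 to 50 FPKM, 35 were and 119 were not. Between 10 and 20 FPKM, 35 were members and 54 were not, but there the floor itself limits how far a library can fall.

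**Figure D1:**
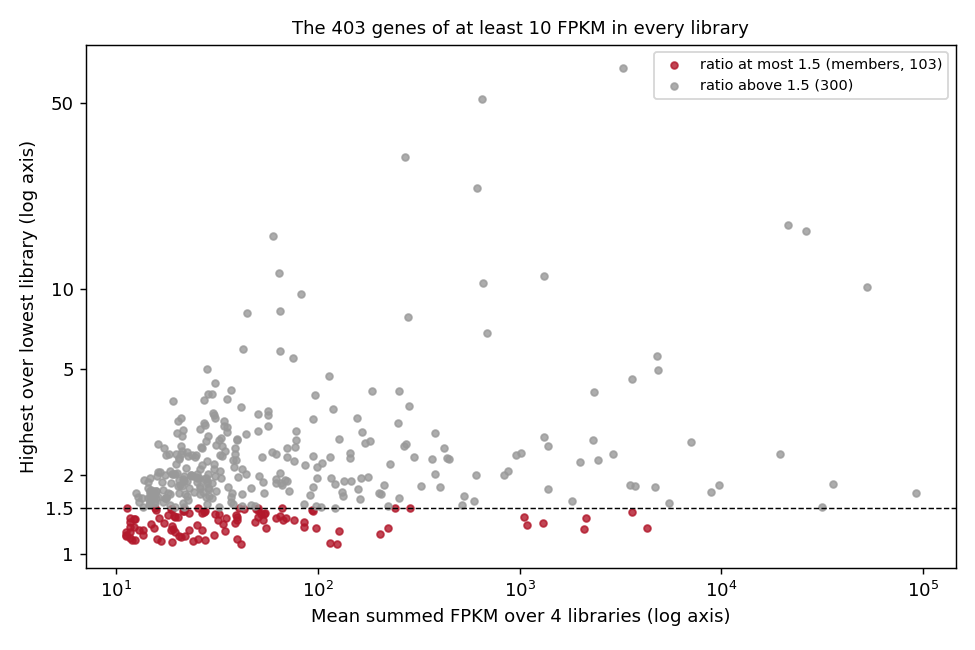
Ratio of the highest to the lowest library (log axis) against mean summed FPKM over the 4 libraries (log axis) for the 403 genes of at least 10 FPKM in every library. Red points are the 103 members at or under the dashed line at 1.5, and grey points are the 300 other genes, whose ratios reach 67.7.

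By name, 31 members had a symbol of their own, 64 had a lnc- name and 8 a TCONS name. These were 32.3%, 24.4% and 17.8% of the abundant genes of each kind. Mean levels ran from 11.3 to 1086 FPKM in members with a symbol (median 22.0), from 11.2 to 4294 FPKM in lnc- members (median 31.6) and from 13.6 to 124 FPKM in TCONS members (median 36.8). All 8 TCONS members and 26 of the lnc- members had a single isoform row, and no member with a symbol did. The names of 15 lnc- members came from neighbours in multi-copy gene families such as POTE, NBPF, NPIPB and ANKRD20A, a grouping made after the names were seen. Such names made up 14.6% of the members, against 2% of the other abundant genes and 0.719% of all listed genes. Every family counted was one with a member, so the higher share among the members was set by that choice. Nothing is read from it. Reads from near-identical copies can be split or misplaced among such loci, so their values are uncertain.

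All members together had 19177 and 19567 FPKM in MDA-MB-231-P3, against 19250 and 20957 FPKM in MDA-MB-231. The 8 most abundant members held 79.1% to 81.3% of it. The members made up 5.46% and 5.25% of the FPKM of all isoforms in MDA-MB-231-P3, against 4.18% and 4.19% in MDA-MB-231. The total over all isoforms was 351135 and 372689 FPKM in MDA-MB-231-P3, against 460282 and 500086 FPKM in MDA-MB-231. The other 300 abundant genes held 313475 and 335267 FPKM in MDA-MB-231-P3, against 423691 and 462171 FPKM in MDA-MB-231. The members' share was higher in both MDA-MB-231-P3 libraries while their own sum overlapped between the lines.

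The most abundant member, lnc-ARF6-1, had 4328 and 4862 FPKM in MDA-MB-231-P3, against 3871 and 4115 FPKM in MDA-MB-231. Both subline libraries were the higher ones. The gene lnc-KIF2B-4 had 3563 and 3134 FPKM in MDA-MB-231-P3, against 3120 and 4525 FPKM in MDA-MB-231. Here the parental libraries enclosed those of the subline. The gene lnc-ACTRT3-2 had 1823 and 1901 FPKM in MDA-MB-231-P3, against 2298 and 2511 FPKM in MDA-MB-231, and lay lower in both subline libraries. For lnc-EFCAB2-4 the sums were 2221 and 2053 FPKM in MDA-MB-231-P3, against 1807 and 2244 FPKM in MDA-MB-231, and the lines overlapped. For lnc-RAB28-7 they were 1155 and 1191 FPKM in MDA-MB-231-P3, against 1523 and 1352 FPKM in MDA-MB-231, again without overlap. The gene lnc-ARHGAP24-4, eighth in the order of means, had 233 and 319 FPKM in MDA-MB-231-P3, against 249 and 348 FPKM in MDA-MB-231. Its spread lay within the lines rather than between them.

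The snoRNA hosts among the members were GAS5, SNHG5, SNHG16, DANCR and LINC02001. They were 5 of the 24 listed hosts that reached 10 FPKM in every library, or 20.8%, beside 25.6% of all abundant genes. RefSeq places 11 snoRNA genes inside GAS5, 3 inside SNHG16, 2 inside SNHG5 and 1 each inside DANCR and LINC02001. GAS5, a host that accumulates when growth arrests, had 1132 and 1207 FPKM in MDA-MB-231-P3, against 1073 and 932 FPKM in MDA-MB-231, with means of 1169 ± 53.1 FPKM for MDA-MB-231-P3 and 1002 ± 99.4 FPKM for MDA-MB-231 (n = 2 each, SD). Its hg19 position is chromosome 1, 173827697 to 173838020, minus strand. SNHG5 had 934 and 945 FPKM in MDA-MB-231-P3, against 1294 and 1010 FPKM in MDA-MB-231, and its hg19 position is chromosome 6, 86360209 to 86388650, minus strand. Both MDA-MB-231-P3 libraries lay above the MDA-MB-231 libraries for GAS5 and below them for SNHG5.

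SNHG16 had 191 and 221 FPKM in MDA-MB-231-P3, against 287 and 268 FPKM in MDA-MB-231. With a ratio of 1.4994 it was the member nearest to the limit. DANCR, which holds back differentiation in several cell types, had 59.4 and 58.7 FPKM in MDA-MB-231-P3, against 80.7 and 78.4 FPKM in MDA-MB-231. The libraries of each line were close to each other and the lines lay apart, with means of 59.1 ± 0.511 FPKM for MDA-MB-231-P3 and 79.6 ± 1.65 FPKM for MDA-MB-231 (n = 2 each, SD). LINC02001 had 10.3 and 12.1 FPKM in MDA-MB-231-P3, against 12.1 and 10.5 FPKM in MDA-MB-231. The most abundant hosts outside the members were SNHG3, SNHG10 and LRRC75A-AS1, with ratios of 1.85, 2.71 and 1.76.

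Of 7 microRNA hosts that reached 10 FPKM in every library, MIR17HG, MIR22HG, MIR503HG and PVT1 were members, and MIR4435-2HG, MIR100HG and MIR222HG were not. The members were 57.1% of these few hosts, beside 25.6% of all abundant genes. MIR17HG, which carries a growth-promoting microRNA cluster, had 34.7 and 41.5 FPKM in MDA-MB-231-P3, against 33.6 and 30.4 FPKM in MDA-MB-231. Its hg19 position is chromosome 13, 91999940 to 92049846, plus strand. MIR22HG had 10.8 and 10.9 FPKM in MDA-MB-231-P3, against 13.7 and 13.5 FPKM in MDA-MB-231. MIR503HG had 15.4 and 17.5 FPKM in MDA-MB-231-P3, against 17.9 and 12.2 FPKM in MDA-MB-231. PVT1, a neighbour of MYC, had 53.3 and 39.7 FPKM in MDA-MB-231-P3, against 58.4 and 50.4 FPKM in MDA-MB-231. The lines overlapped for MIR503HG and PVT1 and did not overlap for MIR17HG and MIR22HG.

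PVT1 was also the single member among the 4 abundant p53-linked and the 6 abundant metastasis-linked lncRNAs. These were 25% and 16.7%, beside 25.6% of all abundant genes. The lists held few abundant genes, so nothing is read from these counts or from those that follow. No member was among the 4 abundant nuclear-retained lncRNAs (MALAT1, NEAT1, FIRRE and TUG1), the 3 abundant cytoplasmic decoys (CYTOR, NORAD and OIP5-AS1) or the X-inactivation centre, where JPX was the abundant gene. None of the 7 structured housekeeping RNAs looked for was listed by name.

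Other members with a symbol included a regulator of a neighbouring gene. LINC01578, known as CHASERR and as a repressor in cis of the chromatin remodeller gene CHD2, had 64.3 and 69.9 FPKM in MDA-MB-231-P3, against 84.9 and 86.7 FPKM in MDA-MB-231. Its hg19 position is chromosome 15, 93362770 to 93442931, plus strand, and some of its annotated exons overlap those of CHD2 on the same strand. FGD5-AS1 had 124 and 143 FPKM in MDA-MB-231-P3, against 125 and 117 FPKM in MDA-MB-231. MINCR, named as induced by MYC, had 58.3 and 62.9 FPKM in MDA-MB-231-P3, against 57.2 and 80.0 FPKM in MDA-MB-231. LINC00662 had 62.2 and 47.3 FPKM in MDA-MB-231-P3, against 44.8 and 47.2 FPKM in MDA-MB-231. In MINCR and LINC00662 a single library stood above the other 3.

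FLG-AS1, from the filaggrin locus, had 36.8 and 35.9 FPKM in MDA-MB-231-P3, against 30.1 and 35.5 FPKM in MDA-MB-231. GABPB1-IT1, from an intron of GABPB1, had 27.7 and 26.1 FPKM in MDA-MB-231-P3, against 26.3 and 29.7 FPKM in MDA-MB-231. The remaining members with a symbol had means of at most 25.5 FPKM. MAPKAPK5-AS1, which differed most between the lines among them and was chosen for that, had 19.8 and 22.8 FPKM in MDA-MB-231-P3, against 29.5 and 29.6 FPKM in MDA-MB-231.

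**Figure D2:**
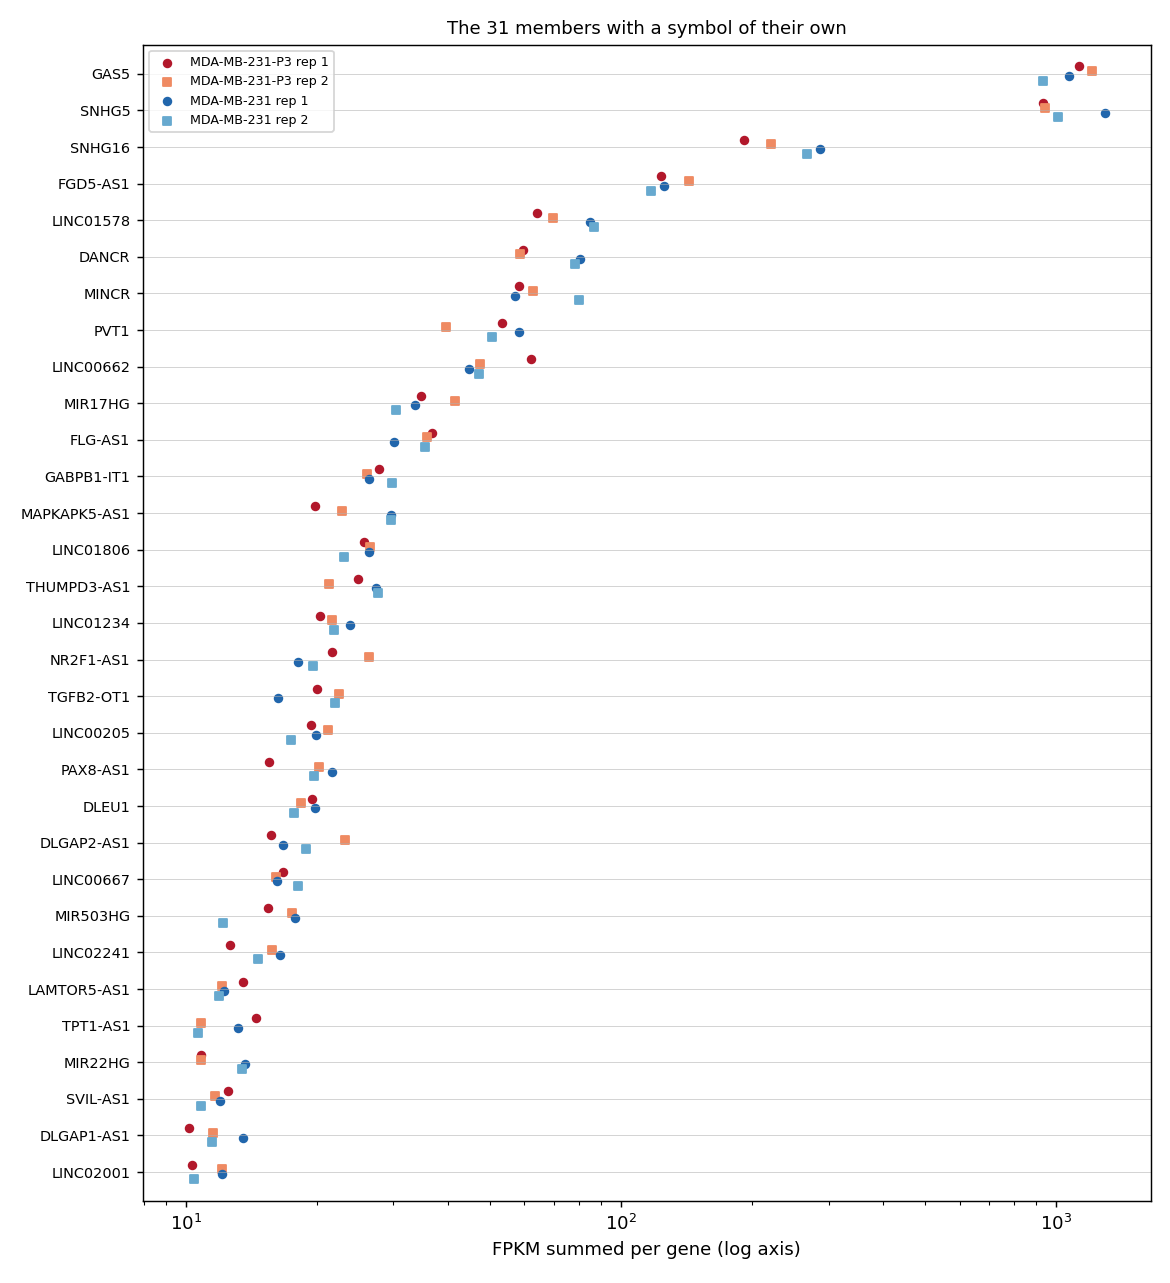
Summed FPKM (log axis) of the 31 members with a symbol of their own, in each of the 4 libraries, ordered by their mean. Red and orange points are the MDA-MB-231-P3 libraries and dark and light blue points the MDA-MB-231 libraries; GAS5 and SNHG5 stand near 1000 FPKM and the others at or below 287 FPKM.

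The steadiest members came from every kind of name. TCONS_00000004 had 116 and 127 FPKM in MDA-MB-231-P3, against 127 and 125 FPKM in MDA-MB-231, the smallest ratio of all members at 1.09. The gene lnc-ANKRD20A2-22 had 42.6 and 43.2 FPKM in MDA-MB-231-P3, against 39.5 and 40.2 FPKM in MDA-MB-231. The gene lnc-VSTM5-1 had 112 and 109 FPKM in MDA-MB-231-P3, against 117 and 120 FPKM in MDA-MB-231. In both of these the lines did not overlap although they lay close. DLEU1, from a region of chromosome 13 that is lost in leukaemia, had 19.5 and 18.4 FPKM in MDA-MB-231-P3, against 19.8 and 17.7 FPKM in MDA-MB-231. LINC00667 had 16.7 and 16.1 FPKM in MDA-MB-231-P3, against 16.2 and 18.1 FPKM in MDA-MB-231. These last sums overlapped between the lines.

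The limits of the rule fell among genes with closely similar values. Just inside the ratio were SNHG16 and lnc-DUOXA1-2 at 1.499 each, and just outside were lnc-ZNF713-3 at 1.503 and MZF1-AS1 at 1.505. Just inside the floor were lnc-LPCAT1-3, with a lowest library of 10.0035 FPKM, and DLGAP1-AS1, with 10.2 FPKM. Just outside it were lnc-DEFB115-5, with a lowest library of 9.82 FPKM and a ratio of 1.15, and lnc-SIPA1-2, with 9.69 FPKM and a ratio of 1.26.

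Within the ratio, members still leaned one way or the other. Both MDA-MB-231-P3 libraries lay above both MDA-MB-231 libraries for 22 members and below them for 31, and 50 members overlapped. These were 21.4% above and 30.1% below, against 25.7% above and 36.7% below for the other abundant genes. Among all 6444 tested genes, 28.9% lay above and 21.4% below in this way. The difference in log2(FPKM + 0.5) between the line means (MDA-MB-231-P3 minus MDA-MB-231) ran from -0.50 for lnc-PMM1-1 to 0.49 for TCONS_00020763, with a median of -0.09. The median was -0.23 for the other abundant genes and 0.08 for all tested genes. The direction depends on the scaling: with equal totals the medians were 0.31 for the members and 0.37 for all tested genes. In the fit of limma to all summed genes, 0 of 103 members passed an adjusted p of 0.05 and 0 had an unadjusted p under 0.05, where 0.0621% of all genes were called and 15.2% had an unadjusted p under 0.05. Without the filter on low values, 10 members (9.71%) had an unadjusted p under 0.05, beside 8.84% of all genes, and none was called. The rule used this contrast, so nothing is read from these counts.

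The libraries did not take the extremes evenly. MDA-MB-231-P3 replicate 1 was the lowest library for 40 members and the highest for 16, and replicate 2 was the lowest for 19 and the highest for 25. MDA-MB-231 replicate 1 was the lowest for 22 and the highest for 32, and replicate 2 was the lowest for 22 and the highest for 30. MDA-MB-231-P3 replicate 1 also had the smallest FPKM total. When each library was scaled to the same total, 108 genes met the rule, and 49 of them were among the 103. Quantile normalization kept 82 of the 103 and centring on the median of the abundant genes kept 86. All 3 rescalings kept 45 members, among them SNHG16, DANCR, LINC01578, MINCR, MIR22HG and LINC00667. As deposited, all 45 had a lower mean in MDA-MB-231-P3, with a median log2 difference of -0.19. Under equal totals 54 members were lost, 41 with a positive and 13 with a negative log2 difference as deposited. Of all 103 members, 41 were positive and 62 negative, so every positive member was lost. The single direction of the 45 was thus set by that scaling, and nothing is read from it. That scaling moved the median log2 difference of the members up by 0.40. GAS5, SNHG5 and MIR17HG were not among the 45, each failing the rule under at least 1 of the 3 rescalings.

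How a gene's sum was divided among its isoforms was not used by the rule. Of the 103 members, 69 had more than 1 isoform row, and up to 76 were listed for a member. The same isoform led in all 4 libraries for 36 of the 69 (52.2%), against 82 of 153 (53.6%) of the other abundant genes with several isoforms. The leading isoform, by its mean share, held over 50% of the sum in every library for 26 members. In 37 of the 69 the leading isoform itself varied by more than 1.5 times between libraries, although the rule kept the sum within it. The same held for 141 of the 153 other abundant genes (92.2%), whose sums varied more by the choice. The share of the leading isoform differed between the line means by at least 10 percentage points for 17 of the 69 (24.6%), against 29.4% of the other abundant genes.

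The widest shift was in LINC00667 (hg19 chromosome 18, 5237825 to 5290607, plus strand). Its isoform LINC00667:6 held 55.7% and 0.247% of the sum in MDA-MB-231-P3, against 71.0% and 74.2% in MDA-MB-231. In MDA-MB-231-P3 replicate 2 the isoform LINC00667:19 held 55.5% in its place, so the shift lay in 1 library. The isoform lnc-TPTE-1:4 held 25.3% and 22.0% in MDA-MB-231-P3, against 67.4% and 48.2% in MDA-MB-231. The isoform lnc-EPHA6-1:3 held 49.5% and 42.7% in MDA-MB-231-P3, against 23.3% and 11.7% in MDA-MB-231. For both of these the lines did not overlap, and the locus of lnc-TPTE-1 is named for a multi-copy family. LINC02001:3 held 46.9% and 64.9% in MDA-MB-231-P3, against a value listed near 0 and 55.0% in MDA-MB-231, so here too 1 library decided the difference.

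Other shifts, chosen after their values were seen, were alike in both libraries of a line. DLEU1:53 held 29.6% and 33.8% of DLEU1 in MDA-MB-231-P3, against 58.4% and 54.4% in MDA-MB-231, while the sum of DLEU1 had a ratio of only 1.12. TPT1-AS1:64 was listed near 0 in both MDA-MB-231-P3 libraries and held 23.4% and 34.0% of TPT1-AS1 in MDA-MB-231. TPT1-AS1:32 was the reverse, with 12.3% and 11.1% in MDA-MB-231-P3 and a value listed near 0 in both MDA-MB-231 libraries. THUMPD3-AS1:90 held at most 0.0306% in MDA-MB-231-P3, against 15.3% and 14.4% in MDA-MB-231. Values near 0 can be failed estimates of an isoform's share.

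In the 3 most abundant snoRNA hosts among the members, the share of the leading isoform was similar in all 4 libraries. SNHG5:43 held 90.5% and 87.6% of SNHG5 in MDA-MB-231-P3, against 91.2% and 89.4% in MDA-MB-231. GAS5:55 held 42.4% and 43.9% of GAS5 in MDA-MB-231-P3, against 44.7% and 45.3% in MDA-MB-231. SNHG16:36 held 59.4% and 58.4% of SNHG16 in MDA-MB-231-P3, against 56.4% and 60.2% in MDA-MB-231. The less abundant hosts, DANCR and LINC02001, were less even. DANCR:13 held 70.9% and 53.4% of DANCR in MDA-MB-231-P3, against 78.3% and 76.1% in MDA-MB-231, and LINC02001:3 is given above.

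**Figure D3:**
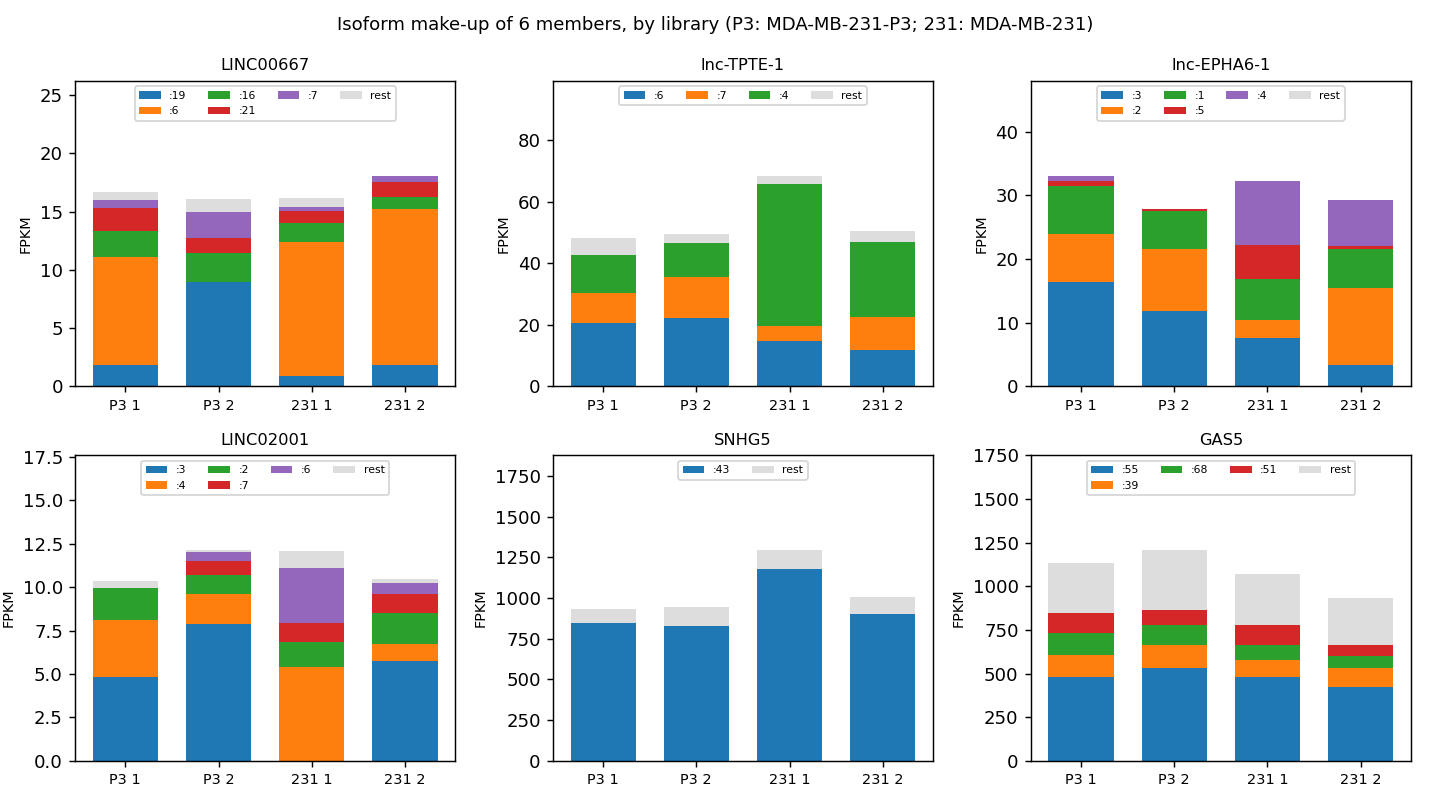
Summed FPKM by library for 6 members, divided by isoform: each colour is an isoform with a mean share of at least 5%, grey the rest, and the pair of columns on the left of each panel is MDA-MB-231-P3 and the pair on the right MDA-MB-231. Column heights within a panel differ by at most 1.42 times, while colours change in LINC00667, lnc-TPTE-1, lnc-EPHA6-1 and LINC02001 and stay alike in SNHG5 and GAS5.

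The division was tested with limma on the log2 ratio of each isoform to the other isoforms of its gene, over 3927 isoforms of all genes. It called 0 of 3927 (0%) at an adjusted p of 0.05, and thus 0 of the 438 tested isoforms of the 69 members. Without adjustment, 318 isoforms in all (8.1%) had a p under 0.05, and so had 37 of the 438 member isoforms (8.45%). THUMPD3-AS1:90 had the smallest p among the members, with a log2 difference of -3.16 (SE 0.41, limma unadjusted p = 0.00175, adjusted p = 0.561). TPT1-AS1:64 differed by -3.49 (SE 0.49, limma unadjusted p = 0.00226, adjusted p = 0.561) and lnc-EPHA6-1:4 by -3.86 (SE 0.57, limma unadjusted p = 0.00275, adjusted p = 0.561). With 2 libraries per line these p-values do not show that the isoform shares of the lines were alike. Isoforms of a gene share its reads and are not independent.

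**Figure D4:**
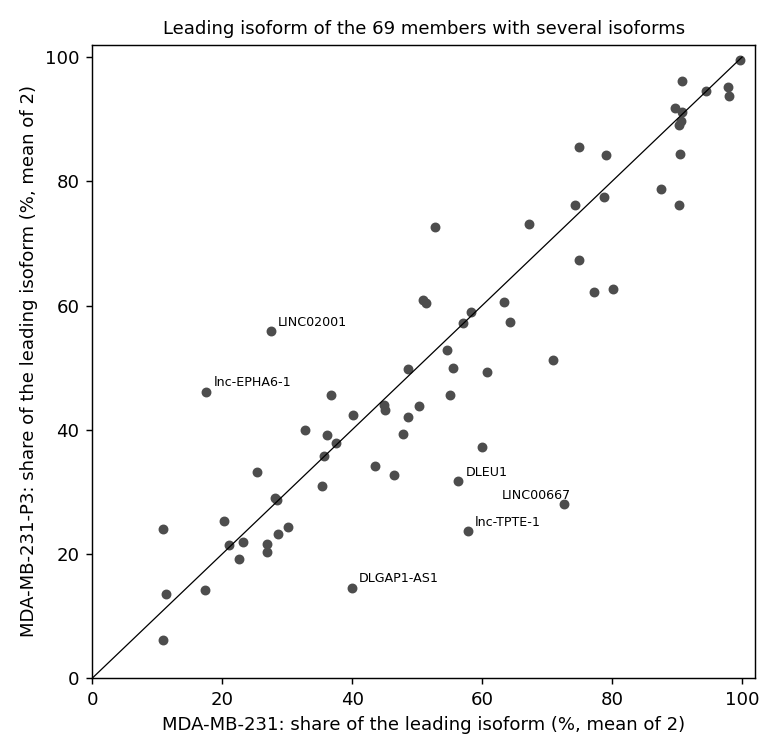
Share of the leading isoform (%, mean of 2 libraries) in MDA-MB-231-P3 (vertical axis) against MDA-MB-231 (horizontal axis) for the 69 members with several isoform rows; the line marks equal shares. Of the 69 points, 17 lie at least 10 percentage points off the line, and the 6 widest shifts are named, from LINC00667 with 28.0% and 72.6% to DLEU1 with 31.7% and 56.4%.

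The annotated members lay on 16 chromosomes and had a median span of 49907 bases, against 29178 bases for the 64 other abundant genes with a match and 15390 bases for all 3297 matched genes. A protein-coding gene started on the other strand within 1000 bases of 7 of the 31 members (22.6%), against 32.8% of the other abundant genes and 13.9% of all matched genes. TPT1-AS1 started 61 bases from TPT1, which encodes a tumour protein linked to translation, and LINC00205 started 137 bases from POFUT2. A protein-coding gene overlapped 18 members on the other strand. Exons of LINC01578, SNHG5 and TGFB2-OT1 overlapped exons of a protein-coding gene on the same strand, CHD2 and TGFB2 in the first and last case, so reads of these pairs may have been shared. The libraries marked strand, but whether strand was used in assigning reads is not given in the sources used here, so the antisense members are uncertain in the same way.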

How the data were processed

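RNA of MDA-MB-231-P3 and MDA-MB-231 cells, 2 libraries each, was sequenced in paired ends after dUTP strand marking of mRNA libraries. Per the labels, the authors aligned reads to hg19 with HISAT2 and deposited FPKM for each lncRNA isoform. StringTie is also named (the submitters' processing notes). Versions, lncRNA annotation and use of strand in counting: not given in the sources used here. The 4 per-sample files equalled the series table. Read depth is unknown, so no counting intervals are given.

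Rows were summed per gene with pandas 2.3.3 (Python 3.11.15, numpy 2.4.6). The members, lists and rules were chosen with earlier results of these data known. Names followed fixed rules: members on the lists, the 8 most abundant, the 5 steadiest, those beside each limit, the 4 widest shifts of a leading isoform, the 12 most abundant symbols and abundant list genes outside the members. Other genes were chosen after their values were seen. Genes or isoforms with mean FPKM of at least 0.5 were tested on the log2 scale with a pseudocount of 0.5 (limma 3.58.1, R 4.3.3, intensity trend, two-sided, Benjamini-Hochberg over all features, no block). For isoform shares, the gene's other isoforms also had to reach 0.5. The fits were tested on simulated data. Alternatives were other floors, ratios, scalings, pseudocounts and filters, no trend, a replicate block and leaving out each library. Genome positions came from GENCODE 44 lifted to GRCh37, sequences, newer symbols and the small RNA genes inside a host from RefSeq. Plots were drawn with matplotlib 3.10.9.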

Additional observations from a re-analysis of the deposited data

How the results depend on the processing

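The number of members followed the limits of the rule: 178 genes met it with a floor of 5 FPKM, 59 with a floor of 20, 44 with a ratio of at most 1.3 and 247 with a ratio of at most 2, against 103. Leaving out single libraries gave 148 to 191, since fewer libraries have to keep within the ratio. Equal totals, quantile normalization, centring and single isoform rows gave 108, 105, 111 and 69. The median log2 difference of the members was 0.31 with equal totals, -0.0034 with quantile normalization and 0.022 with centring, against -0.09 as deposited, and -0.10 to -0.024 without single libraries. Equal totals moved the median of all tested genes to 0.37 as well. Of the summed genes, 4 were called over all genes. None was called when the pseudocount was 1, when no filter or no trend was used (0 each), 2 after quantile normalization, and 0 to 0 when a library was left out, where the line with a lone library is assumed to vary like the other. The cause was not tested. The count of 0 called isoform shares was the same in every alternative run. No read depth is known, so counting error is not limited here.

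With the replicate number as a block, 0 summed genes and 0 isoform shares were called, against 4 and 0. The labels do not tie same-numbered libraries together. The difference between the 2 replicates, first minus second, was taken in each line. Between the lines, these differences had a correlation of 0.078 across the tested summed genes and 0.00013 across the tested isoform shares.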
